A study of Mus musculus with 10 samples.

Results

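The genes described here gained expression between day 3 and day 6 while mouse embryonic stem cells were carried towards trunk progenitors, and stood higher again after 24 h of Gdf11. They were chosen from group means in CPM, the count of a gene scaled to the total gene counts of its library. A gene had to reach at least 1 CPM on day 6 and at least 2 times its day 3 mean. With Gdf11 on day 7 it had to reach at least 1.8 times its mean on day 7 without Gdf11, but less than 3 times the highest mean of the 4 other groups. Hox genes and genes with predicted or clone names (Gm or Rik) were dropped. The rule gave 58 of 52459 symbols, and all 58 were among the 18818 genes with enough counts to be tested.

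The cells were ES-Bruce4, a wild-type embryonic stem cell line of strain C57BL/6, so all groups share 1 line and genotype. They had been maintained on mouse embryo fibroblast feeders, which were depleted once before plating, and differentiated in N2B27, a serum-free medium whose B27 supplement was used with or without vitamin A. On day 0 bFgf (10 ng/ml) was supplied, CHIR99021 (5 µM), which blocks Gsk3 and thereby activates the Wnt pathway, was added on day 2, and dishes were split on day 3. The day 3 group and later groups had thus received CHIR99021; whether day 2 cells were taken before it was added is not stated. Cells were collected on day 2 (D2, at the epiblast stage by label), on day 3 (D3), on day 6 (D6), and on day 7 either without Gdf11 (D7) or after 24 h with human Gdf11 protein at 50 ng/ml (D7G). Each group has n = 2 libraries, and no label ties them to separate cultures. The p-values here therefore reflect the spread among these 10 libraries alone, and that spread may be technical.

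Gdf11 is a secreted ligand of the Tgf-β superfamily that acts in the tail bud, where it sets the timing of the change from trunk to tail development. It binds activin type II receptors, which recruit and activate type I receptors of the activin and Tgf-β kind. These phosphorylate Smad2 and Smad3, which enter the nucleus with Smad4 and bind DNA together with partner factors. In many tissues this branch of the pathway raises genes of the extracellular matrix and its own feedback inhibitors.

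Libraries held 31078950 to 33418015 gene counts. Gdf11 mRNA averaged 55.1 CPM in D6, 52.2 in D7 and 43.0 in D7G, and because the added ligand was a human protein this does not check the treatment. T, a marker of the progenitor state, peaked in D3 at 239 CPM and averaged 19.8 in D7 and 29.4 in D7G, and Cdx2, a factor of the posterior embryo, averaged 42.0 in D7 and 25.1 in D7G. Sox2, a neural and pluripotency factor, averaged 233 CPM in D7 and 193 in D7G. Each library pooled the RNA of a whole dish, so more cells of a type and more RNA per cell cannot be told apart. In D7G, replicate 2 lay above replicate 1 for 46 of the 58 members, with a median ratio of 1.12, whereas over all tested genes 48.6% lay higher in replicate 2. In D7 the order was the other way round for most members, with replicate 2 higher in 15 of 58 (median ratio 0.959, and 54.9% of all tested genes).

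The gain by day 6 was met by 838 genes, and 96 of them also met the Gdf11 threshold. Of these, 28 exceeded the cap of 3 times the highest other group, and 10 of those under the cap were dropped by name, 2 of them Hox genes. Hoxd10, Hoxd11, Hoxd12, Hoxa11, Hoxa11os and Hoxc11 also met both thresholds and were among the 28 above the cap. In the other direction, 88 of the 838 genes stood at least 1.8 times lower in D7G than in D7. Among the 838 genes, D7G exceeded D7 in 426 (50.8%), and the members were 6.92% of them. Just inside the gain threshold were Chsy3 (D6 2.05 times D3), Adamts17 (2.08) and Tnfaip6 (2.11), and just outside it Chst15 (1.89), St3gal1 (1.88) and Flt1 (1.86). At the Gdf11 threshold, Mex3b, Tgfb2, Sema6d and Eepd1 lay inside at 1.82, and Mef2c (just under 1.8), Oaf (1.78), Scube1 (1.77) and Ptprd (1.75) lay outside. Below the cap were Chsy3 and Tnfaip6 (2.90 times the highest other group), Nkd2 (2.80) and Col14a1 (2.78), and above it Olig3 (3.04), Tril (3.07), Igfbpl1 (3.09) and Mybpc3 (3.16).

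**Figure D1:**
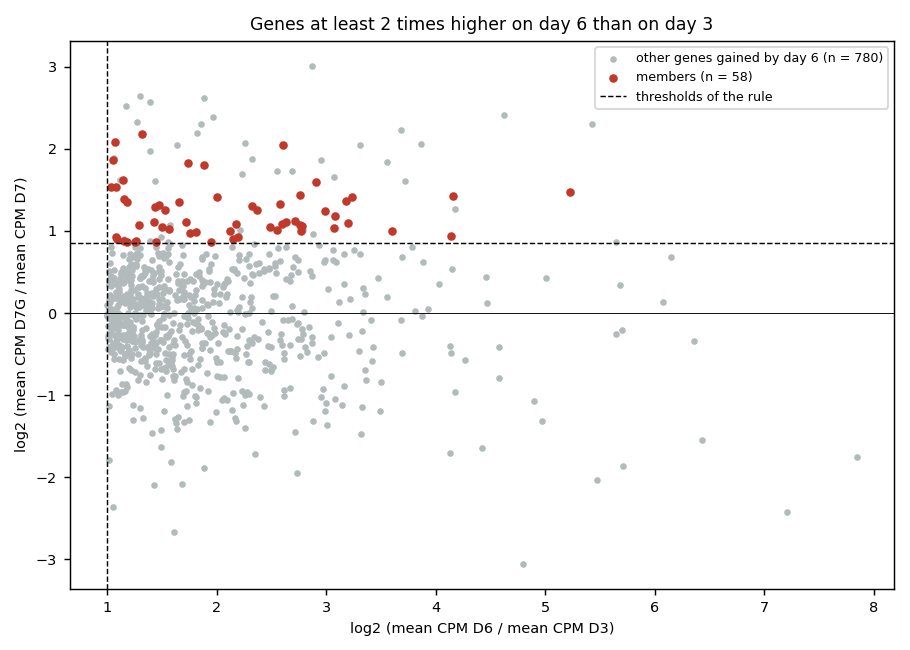
Each point is 1 of the 838 genes gained by day 6, with the log2 ratio of mean CPM in D6 over D3 on the horizontal axis and of D7G over D7 on the vertical axis; dashed lines are the thresholds of the rule. The 58 members (red) fill the area above the upper line, together with the 28 genes above the cap and the 10 dropped by name.

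Because the rule used group means, the choice was repeated with 1 library per group and then read in the libraries not used. The replicate 1 libraries alone chose 45 genes, and in the replicate 2 libraries all 45 had a higher value in D7G than in D7, by 1.33 to 4.64 times (median 2.48), and 34 met every threshold. The replicate 2 libraries alone chose 80 genes, all 80 higher in D7G than in D7 in the replicate 1 libraries by 1.07 to 4.44 times (median 1.83), and again 34 met every threshold. For comparison, the gain and Gdf11 thresholds together were met by 0.654% of all tested genes in the replicate 2 libraries and by 0.441% in the replicate 1 libraries. Over all tested genes, D7G exceeded D7 for 51.6% in the replicate 2 libraries and 54.1% in the replicate 1 libraries. Since the 2 libraries of a group may be technical repeats, these readings describe the libraries and support nothing further.

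Promoter sequence was available from RefSeq (mouse build GRCm38.p6) for 43 of the 58 members, in 52 windows of 300 bases that run from 250 bases before to 50 bases after a transcription start. Members without a window included Cd244, Lmo2, Heyl, Spon2, Hsd11b2, RMST_1, Nog, Pitx1, Angpt1, Col14a1, Has2, Pcdhb11, Chsy3 and Dcc. The windows were searched on both strands for CAGAC, the core Smad-binding element, whose reverse complement is GTCTG. Of the members' windows, 35 of 52 (67.3%) held at least 1 match, against 48.0% of the 15566 windows of all tested genes with sequence. Members' windows were poorer in CpG (median 10.5 CG dinucleotides against 19.0) and in G and C (56.0% against 60.3%). Within windows of at most 60.3% G and C, 70.0% of members' windows and 52.0% of all windows held CAGAC, and above that content 63.6% and 44.0%. Several windows belong to the same gene, and a match is a description of the letters, not a binding site.

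Among matrix and secreted members with a window, Igfbp5, Igfbp4, Frzb, Adamts17, Spock1 and Apod held 0 matches. Tnfaip6 and Islr held 1, and Lect2 held 2. Dync1i1 and Samd5, of other roles, held 4 and 3. Windows of 4 members that encode matrix proteins or secreted ligands are shown because each holds 2 matches. They were picked after the matches were known. They are printed 5′ to 3′ on the strand of the gene with the matches to CAGAC or GTCTG in capitals: Col3a1 (chr1:45311288-45311587, forward strand), Emilin1 (chr5:30913536-30913835, forward), Tgfb2 (chr1:186705940-186706239, reverse) and Pdgfc (chr3:81036166-81036465, forward).
Col3a1: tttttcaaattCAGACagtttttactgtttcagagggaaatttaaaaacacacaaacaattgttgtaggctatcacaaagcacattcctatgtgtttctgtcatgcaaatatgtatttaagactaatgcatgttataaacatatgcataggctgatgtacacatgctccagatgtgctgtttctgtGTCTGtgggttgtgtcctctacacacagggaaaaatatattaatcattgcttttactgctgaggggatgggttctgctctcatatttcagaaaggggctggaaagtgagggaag
Emilin1: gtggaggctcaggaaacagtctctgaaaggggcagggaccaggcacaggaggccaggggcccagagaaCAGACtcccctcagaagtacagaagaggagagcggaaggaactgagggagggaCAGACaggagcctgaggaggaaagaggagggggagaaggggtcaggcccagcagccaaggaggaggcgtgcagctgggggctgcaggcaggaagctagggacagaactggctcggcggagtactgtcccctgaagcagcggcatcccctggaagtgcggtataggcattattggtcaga
Tgfb2: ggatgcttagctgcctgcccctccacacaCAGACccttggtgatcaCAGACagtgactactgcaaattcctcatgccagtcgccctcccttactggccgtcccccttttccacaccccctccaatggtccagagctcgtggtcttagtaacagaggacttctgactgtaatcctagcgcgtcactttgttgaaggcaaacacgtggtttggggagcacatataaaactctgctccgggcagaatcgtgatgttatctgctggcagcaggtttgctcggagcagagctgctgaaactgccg
Pdgfc: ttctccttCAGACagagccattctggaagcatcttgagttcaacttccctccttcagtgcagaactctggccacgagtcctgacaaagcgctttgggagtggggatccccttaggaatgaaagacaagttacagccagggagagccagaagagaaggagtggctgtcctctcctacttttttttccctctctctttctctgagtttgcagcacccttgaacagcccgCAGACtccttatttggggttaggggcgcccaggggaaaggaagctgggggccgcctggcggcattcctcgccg

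The palindrome GTCTAGAC, another Smad motif, which holds neither CAGAC nor GTCTG, was in 0 of the members' 52 windows and in 0.251% of all windows. GGCGCC, a GC-rich Smad motif, was in 11.5% of members' windows against 20.2%, and CTTTGAT, a Tcf/Lef motif, in 1.92% against 2.58%. The E-box CATATG was in 1.92% against 1.86%. TATAAA was in 11.5% against 7.55%, and in the Tgfb2 window above it begins at position -31 from the start.

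Over the time course, the lowest group mean was that of D2 in 43 members and that of D3 in 15. The highest was D7G in 54 members and D6 in 4 (Kif26b, Lmo2, Lrrtm4 and Fbxl22). Without Gdf11 the highest group was D6 in 27 members and D7 in 31. The gain from D3 to D6 that chose the members had a median log2 fold change of 2.05 (1.11 to 5.29), and all 58 were called higher (adjusted p under 0.05, called here from edgeR's quasi-likelihood test with Benjamini-Hochberg adjustment) where 32.4% of all tested genes were. The D7G over D7 difference that chose them had a median of 1.11 (0.86 to 2.18), again with 58 called higher where 22.5% of all tested genes were. Both counts follow from the rule, and nothing is read from them.

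**Figure D2:**
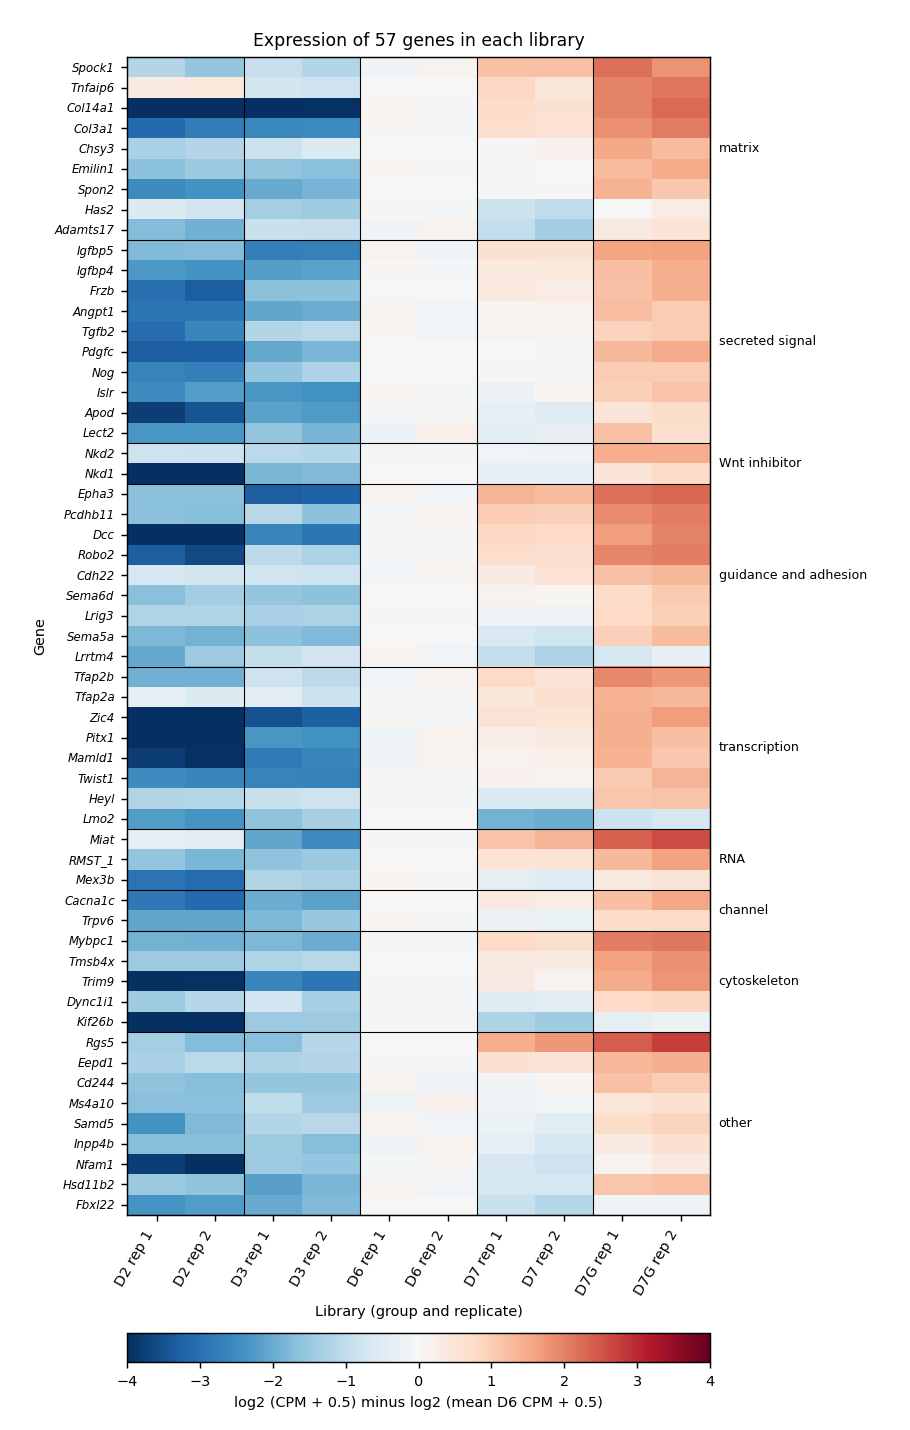
Each row is 1 of 57 members, grouped by role, and each column 1 of the 10 libraries. Colour gives log2 (CPM + 0.5) minus the same for the mean of D6 (blue lower, red higher, colours end at -4 and 4), and the D2 and D3 columns are mostly blue while the D7G columns are red in most rows.

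What the rule did not fix was the course between D6 and D7 without Gdf11. On this contrast 23 of the 58 members were called higher and 17 lower, where 20.5% and 15.6% of all tested genes were, and 18 had no call. The median log2 fold change of the members was 0.09 (-2.08 to 1.89) and that of all tested genes 0.04. D6 entered the rule as the high side of the gain and D7 as the low side of the Gdf11 threshold, and the choice therefore favours genes whose D7 value is low. From D6 to D7G, 52 members were called higher, where 30.6% of all tested genes were, and 3 lower, where 22.2% were (median log2 fold change 1.31, against 0.06 over all tested genes). Any gene level between D6 and D7 had to be higher in D7G by the rule, so this count is a description. The same holds for the adjusted p-values of single members from D6 to D7G given below, which are no independent test. The contrasts of D7 and of D7G with D6 share the D6 libraries, and their values are given side by side below.

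**Figure D3:**
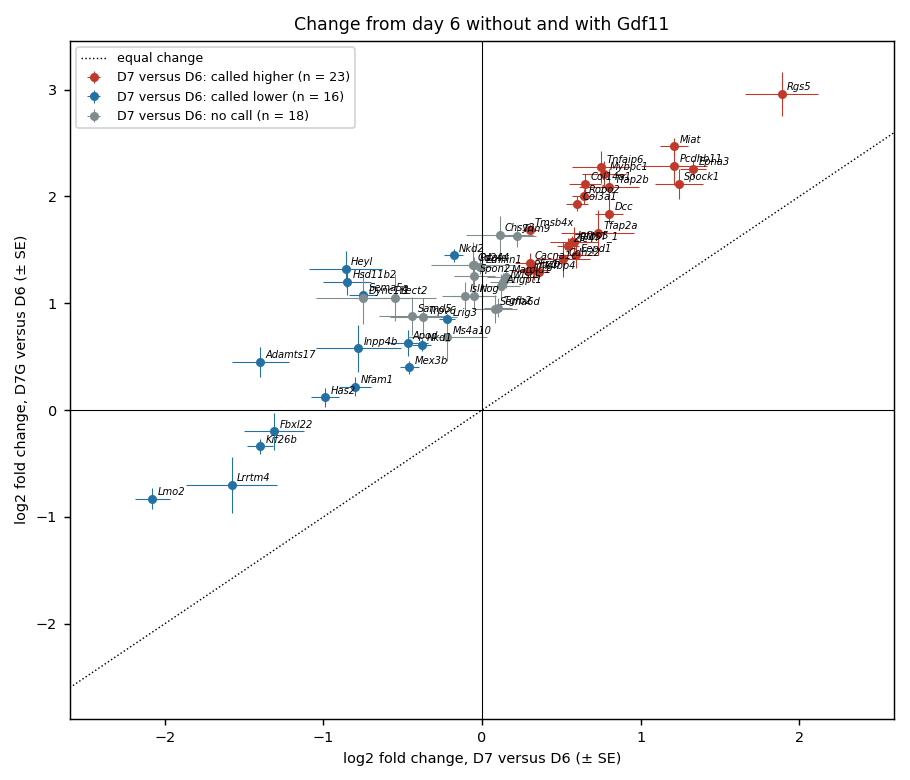
Each point is 1 of 57 members, with its log2 fold change ± SE from D6 to D7 on the horizontal axis and from D6 to D7G on the vertical axis; both axes share the D6 libraries, and the distance above the dotted line is the D7G over D7 difference that the rule set. Members lie from Lmo2 at the lower left (-2.08 and -0.83) to Rgs5 at the upper right (1.89 and 2.96).

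The earlier step from D2 to D3, which spans the first day of CHIR99021, entered the rule only in part, since D3 is the low side of the gain. Here 29 members were called higher and 8 lower, where 29.6% and 28.9% of all tested genes were, and 21 had no call. The median log2 fold change was 0.78 (-2.39 to 6.08), against 0.00 over all tested genes. The 8 that fell were Igfbp5, Tnfaip6, Miat, Hsd11b2, Lrig3, Nkd2, Has2 and Epha3, so these had fallen before they gained. Among the members with at least 5 CPM in a group, Pitx1 had the largest rise (4.45 ± 0.36, SE; adjusted p = 1.87e-09) and Epha3 the largest fall (-2.39 ± 0.23, adjusted p = 1.78e-08). Lect2 had 0 counts in both D2 libraries and 17 over the D3 libraries. With a floor of 3 counts for D2, the ratio scaled to library totals was 5.61, which leaves out counting error in D3. Tfap2b had 2 counts in D2 (ratio D3 over D2 17.3, 95% interval 4.45 to 149), as had Trpv6 (6.93, 1.59 to 62.8), and Cd244 had 1 (3.96, 0.392 to 195), with intervals that cover counting error only.

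By level per kilobase (RPKM, computed here from CPM and the deposited gene length), the members spanned a wide range in D7G. Tmsb4x stood first at 794 RPKM, followed by Col3a1 at 67.3, Igfbp4 at 64.9, Nkd1 at 56.2, Twist1 at 54.3 and Igfbp5 at 46.7. Mex3b had 32.4, Miat 27.7, Lrig3 23.0 and Emilin1 22.6. Neighbours in this order were not tested against each other.

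Of the 9 members that build or modify the extracellular matrix, 4 rose and 2 fell from D6 to D7, and 8 rose from D6 to D7G. Over all tested genes, 20.5% rose and 15.6% fell from D6 to D7, and 30.6% rose from D6 to D7G. Counts by role, here and below, are descriptions, because the rule favoured members that stood higher in D7G. Col3a1, which encodes the chain of the fibrillar type III collagen, lies at chr1:45311538-45349706. Its libraries read 19.3 and 24.1 CPM in D2, 28.0 and 28.8 in D3, 175 and 164 in D6, 272 and 252 in D7 and 602 and 720 in D7G. Both D7 libraries lay above both D6 libraries, and both D7G libraries above every other. From D6 it changed by 0.60 ± 0.07 to D7 (adjusted p = 2.62e-06) and by 1.93 ± 0.07 to D7G (2.34e-14). Col14a1, a collagen that sits on the surface of fibrils, had the largest D6 over D3 ratio of the members with at least 5 CPM, 37.3. It read 0.224 and 0.225 CPM in D2, 0.317 and 0.446 in D3, 14.9 and 13.5 in D6, 23.8 and 21.9 in D7 and 57.1 and 69.9 in D7G. The groups D6, D7 and D7G did not overlap in Col14a1, and its log2 changes from D6 were 0.65 ± 0.10 (adjusted p = 3.16e-05) to D7 and 2.12 ± 0.09 (1.32e-13) to D7G.

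Emilin1, an elastin-associated glycoprotein that binds Tgf-β precursors, differed in that D6 and D7 overlapped. Its values were 13.5 and 15.1 CPM in D2, 14.1 and 13.1 in D3, 45.5 and 40.3 in D6, 44.1 and 43.0 in D7 and 103 and 120 in D7G. The log2 change from D6 to D7 was -0.01 ± 0.07 (adjusted p = 0.908), and to D7G it was 1.34 ± 0.07 (3.37e-12). Spon2, a secreted matrix protein of the spondin family, had a like course, with 6.08 and 6.18 CPM in D6, 5.87 and 6.28 in D7 and 16.7 and 13.4 in D7G. Spock1, a proteoglycan of the testican family, rose from D6 (3.42 and 4.30 CPM) to D7 (9.43 and 9.28) by 1.24 ± 0.15 (adjusted p = 4.14e-06) and read 19.7 and 14.6 in D7G.

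Hyaluronan genes took opposite courses from D6 to D7. Has2, a hyaluronan synthase, read 25.4 and 21.6 CPM in D2, 14.1 and 13.6 in D3, 38.2 and 36.3 in D6, 20.4 and 18.0 in D7 and 36.9 and 45.8 in D7G. D7 lay below D6 in both libraries, and D7G overlapped D6. Has2 fell by 0.99 ± 0.09 from D6 to D7 on the log2 scale (adjusted p = 1.42e-07), and its D7G value differed from D6 by 0.12 ± 0.09 (0.278), or by 0.20 (0.0438) without D7G replicate 1. Tnfaip6, a secreted hyaluronan-binding protein, stood at 1.88 and 1.94 CPM in D6, 3.77 and 2.79 in D7 and 8.99 and 10.1 in D7G. It rose from D6 to D7 by 0.75 ± 0.18 (adjusted p = 0.00278), a call lost without D7 replicate 1 (0.47, adjusted p = 0.091), and to D7G by 2.28 ± 0.15 (1.45e-10). Adamts17, a secreted metalloprotease, stood at 4.42 and 5.41 CPM in D6, 2.24 and 1.55 in D7 and 6.37 and 7.38 in D7G. It fell by 1.40 ± 0.18 from D6 to D7 (adjusted p = 4.76e-06) and was 3.63 times higher in D7G than in D7. Its call from D6 to D7G (0.45 ± 0.14, adjusted p = 0.0118) was lost with DESeq2 (0.107). It was also lost without D6 replicate 1 (log2 fold change 0.32) or D7G replicate 2 (0.28).

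**Figure D4:**
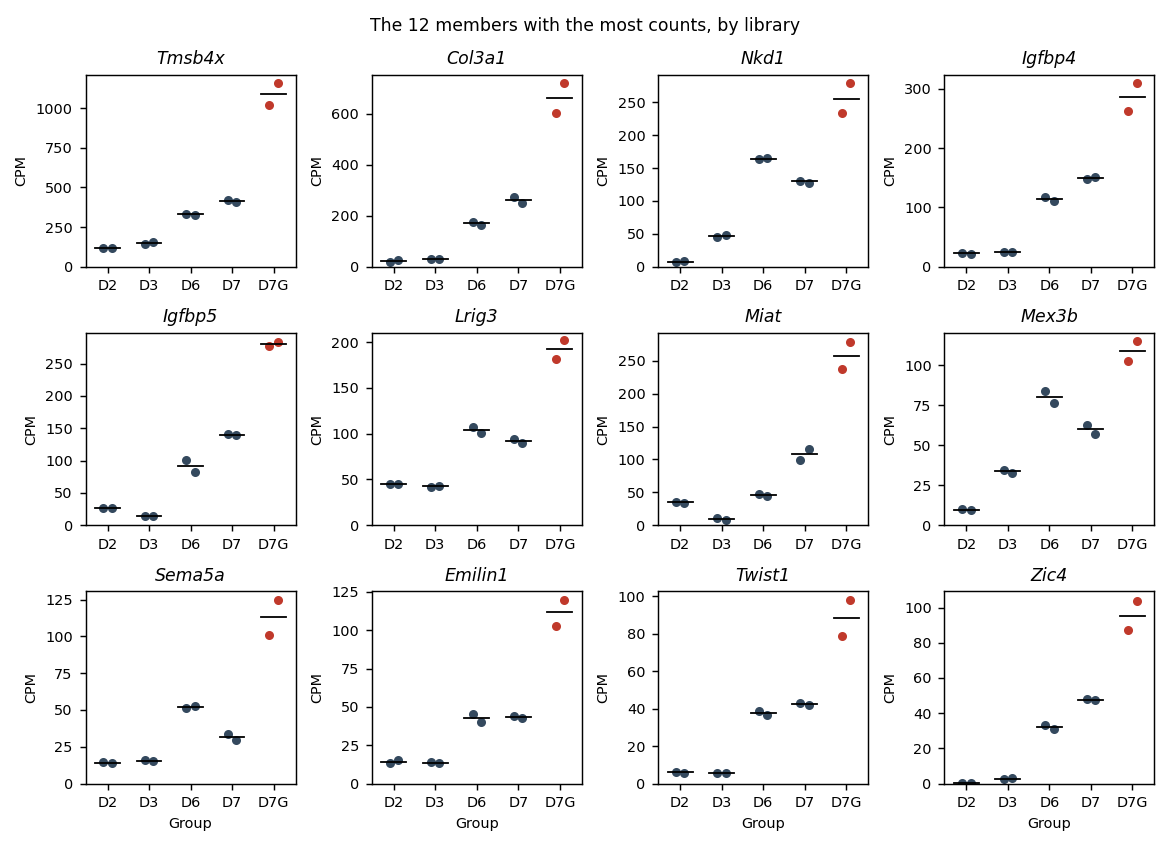
CPM in each library (points) and group means (bars) for the 12 members with the most counts over all libraries; D7G is in red and each panel has its own vertical axis from 0. D7G is the highest group in every panel, and D7 lies below D6 in Nkd1, Lrig3, Mex3b and Sema5a. D7 lies above D6 in Tmsb4x, Col3a1, Igfbp4, Igfbp5, Miat, Zic4 and, without a call, Twist1. In Emilin1 the D6 and D7 libraries overlap.

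Of the 10 secreted signals and binding proteins, 3 rose and 1 fell from D6 to D7 (20.5% and 15.6% of all tested genes). All 10 rose from D6 to D7G (30.6% of all tested genes). Igfbp5 and Igfbp4 encode proteins that bind insulin-like growth factors. Igfbp5 read 26.8 and 27.1 CPM in D2, 13.4 and 13.6 in D3, 101 and 82.3 in D6, 141 and 139 in D7 and 277 and 284 in D7G, so that D3 was the lowest group and D7G the highest without overlap. Its log2 changes were -1.08 ± 0.09 from D2 to D3 (adjusted p = 4.88e-09), 0.57 ± 0.06 from D6 to D7 (8.89e-07) and 1.57 ± 0.06 from D6 to D7G (5.37e-14). Igfbp4 read 22.9 and 21.5 CPM in D2 and 24.5 and 25.5 in D3, a change of 0.09 ± 0.08 (adjusted p = 0.366). Later it followed the same order of groups, with 117 and 111 in D6, 148 and 152 in D7 and 262 and 310 in D7G.

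Tgfb2, itself a ligand of the pathway, is on the reverse strand at chr1:186622792-186705989. Its libraries read 1.51 and 2.22 CPM in D2, 6.82 and 7.36 in D3, 17.2 and 14.9 in D6, 17.9 and 17.4 in D7 and 31.2 and 33.1 in D7G. It rose in D3 by 1.85 ± 0.16 (adjusted p = 3.85e-09), changed by 0.10 ± 0.09 from D6 to D7 (0.413), and rose from D6 to D7G by 0.96 ± 0.09 (9.44e-09). Pdgfc, a ligand of the platelet-derived growth factor receptors, read 33.9 and 33.4 CPM in D6, 34.4 and 32.0 in D7 and 83.0 and 94.3 in D7G. In Pdgfc the D6 and D7 libraries overlapped, at -0.05 ± 0.07 (adjusted p = 0.592), and the D7G libraries lay above both.

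Antagonists of other pathways were among the secreted members. Nog (Noggin), which binds Bmp ligands, stood at 3.98 and 3.85 CPM in D6, 4.07 and 3.70 in D7 and 8.36 and 8.47 in D7G. Its change from D6 was -0.05 ± 0.14 to D7 (adjusted p = 0.83) and 1.07 ± 0.12 to D7G (4.67e-07). Frzb, a secreted Frizzled-related protein that binds Wnt, went from 14.8 and 14.6 CPM in D6 to 19.7 and 18.2 in D7 and 33.6 and 41.3 in D7G. The Frzb call from D6 to D7 (0.33 ± 0.10, adjusted p = 0.01) was lost without D6 replicate 2 (0.0557) or D7 replicate 1 (0.152). Angpt1, the ligand of the endothelial receptor Tek, went from 6.27 and 5.32 CPM in D6 to 6.49 and 6.37 in D7 and 14.3 and 12.2 in D7G. Apod, a lipocalin, fell by 0.47 ± 0.13 from D6 to D7 (adjusted p = 0.00721, or 0.064 without D7 replicate 2) and read 10.5 and 12.3 CPM in D7G. Islr and Lect2, both secreted, stood at 10.8 and 12.4 and at 5.17 and 3.43 CPM in D7G. In D7 Islr read 4.52 and 5.70 and Lect2 1.35 and 1.49.

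The pair of Naked cuticle genes, whose proteins bind Dishevelled and dampen Wnt signalling, both fell from D6 to D7 and rose from D6 to D7G. Nkd1 read 7.17 and 8.27 CPM in D2, 45.8 and 48.0 in D3, 164 and 165 in D6, 131 and 128 in D7 and 234 and 279 in D7G. Each step changed the group without overlap, upwards in D3, D6 and D7G and downwards in D7 (-0.38 ± 0.06 against D6, adjusted p = 6.20e-05). Nkd2 was already present in D2 at 13.1 and 12.7 CPM, and read 10.9 and 10.5 in D3, 24.3 and 23.0 in D6, 22.0 and 20.8 in D7 and 66.1 in both D7G libraries. Its D7G over D7 ratio of 3.09 was above the 1.98 of Nkd1, and its D7 value was lower than D6 by 0.18 ± 0.06 (adjusted p = 0.0351). That fall lost its call with DESeq2 (adjusted p = 0.0842) and with library totals (0.0831). It was also lost without D6 replicate 1 (log2 fold change -0.13) or D7 replicate 2 (-0.17).

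Among the 9 guidance and adhesion genes, 5 rose and 3 fell from D6 to D7 (20.5% and 15.6% of all tested genes). From D6 to D7G 8 rose and 1 fell (30.6% and 22.2% of all tested genes). Epha3, an ephrin receptor, had 2.69 and 2.70 CPM in D2, 0.507 and 0.573 in D3, 10.2 and 8.82 in D6, 25.3 and 23.7 in D7 and 45.1 and 48.4 in D7G. The lowest group was D3, and each later group lay above the one before. From D6 it rose by 1.33 ± 0.08 to D7 (adjusted p = 6.27e-10) and by 2.26 ± 0.08 to D7G (9.26e-15). Robo2, a receptor for Slit proteins, read 21.0 and 22.2 CPM in D6, 35.2 and 33.8 in D7 and 85.3 and 91.3 in D7G, and had risen from D2 to D3 by 2.56 ± 0.14 (adjusted p = 5.33e-12). Dcc, the netrin receptor, read 14.8 and 16.1 CPM in D6, 27.8 and 27.1 in D7 and 50.0 and 62.9 in D7G. Both receptors kept D6, D7 and D7G apart, and rose from D6 to D7 by 0.64 ± 0.07 (Robo2, adjusted p = 7.98e-07) and 0.80 ± 0.09 (Dcc, 2.37e-06).

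The semaphorins Sema5a and Sema6d are membrane proteins that guide axons and migrating cells. Sema5a read 14.7 and 13.7 CPM in D2, 16.2 and 15.0 in D3, 51.4 and 52.7 in D6, 33.8 and 29.7 in D7 and 101 and 125 in D7G. D7 lay below D6 in both libraries (-0.75 ± 0.09, adjusted p = 1.47e-06), and D7G was 3.56 times D7. Sema6d changed by 0.08 ± 0.14 from D6 to D7 (adjusted p = 0.694), with 4.61 and 4.68 CPM in D6, 5.18 and 4.88 in D7 and 8.20 and 10.1 in D7G. Lrig3, a membrane protein with leucine-rich and immunoglobulin repeats, read 107 and 101 CPM in D6, 93.7 and 89.5 in D7 and 182 and 202 in D7G (-0.22 ± 0.05 from D6 to D7, adjusted p = 0.00213). Its fall from D2 to D3 was small, -0.15 ± 0.06 (adjusted p = 0.0389), and lost its call with DESeq2 (0.0926) and without any 1 of the D2 or D3 libraries (0.08 to 0.222).

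Smaller values were found for the remaining adhesion genes. Pcdhb11, a clustered protocadherin, rose from 1.25 and 1.43 CPM in D6 to 3.26 and 3.09 in D7 (1.21 ± 0.21, adjusted p = 1.34e-04) and read 6.31 and 7.13 in D7G. Its neighbours in the cluster are near copies of it, and how shared reads were counted is not given in the sources used here. Cdh22, a cadherin, read 1.91 and 2.29 CPM in D6, 2.75 and 3.37 in D7 and 5.42 and 6.01 in D7G. The Cdh22 call from D6 to D7 (0.51 ± 0.17, adjusted p = 0.0257) was lost with DESeq2 (0.14) and with only the groups compared (0.0521). It was also lost without D6 replicate 1 (log2 fold change 0.39) or D7 replicate 2 (0.33). Lrrtm4, a synaptic membrane protein, was lower in D7G than in D6 (2.32 and 1.91 CPM in D6, 0.838 and 0.606 in D7, 1.10 and 1.56 in D7G). Its call from D6 to D7G (-0.70 ± 0.26, adjusted p = 0.0271) was lost without D6 replicate 1 (0.178) or D7G replicate 1 (0.144), with DESeq2 (0.136) and with the deposited counts per Ensembl gene (-0.63, adjusted p = 0.0815), where its summed count was 0.507 times that used here. The D7G over D7 difference of Lrrtm4 (0.88 ± 0.31) also lost its call in 4 alternatives, with adjusted p from 0.0646 without a filter to 0.26 without D7G replicate 2 (0.224 without D7 replicate 2, 0.11 with DESeq2).

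Of the 8 transcription factors and cofactors, 4 rose and 2 fell from D6 to D7 (20.5% and 15.6% of all tested genes). From D6 to D7G 7 rose and 1 fell (30.6% and 22.2% of all tested genes). Twist1, a basic helix-loop-helix factor of mesenchyme, lies at chr12:33957671-33959829 and read 6.15 and 5.79 CPM in D2, 5.55 and 5.42 in D3, 38.8 and 36.5 in D6, 42.9 and 41.7 in D7 and 78.7 and 97.9 in D7G. D2 and D3 lay close together, D6 and D7 formed a middle level, and D7G stood above. The change from D6 to D7 was 0.13 ± 0.08 (adjusted p = 0.207) and to D7G 1.20 ± 0.08 (7.13e-11). Zic4, a zinc finger factor of the dorsal neural tube and somites, read 0.192 and 0.129 CPM in D2, 2.41 and 2.87 in D3, 33.3 and 30.8 in D6, 47.9 and 47.3 in D7 and 87.5 and 104 in D7G. All 5 groups were apart in Zic4, which rose by 3.93 ± 0.36 from D2 to D3 (adjusted p = 1.23e-08) and by 0.54 ± 0.07 from D6 to D7 (1.26e-05). Zic4 overlaps exons of Zic1 on the opposite strand, and without stated strand use their reads cannot be told apart.

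Pitx1, a homeobox factor of the hindlimb field, read 0.128 and 0.129 CPM in D2, 3.14 and 2.96 in D3, 16.0 and 19.8 in D6, 21.6 and 23.2 in D7 and 48.7 and 41.7 in D7G. D6 and D7 did not overlap, yet the call between them (0.29 ± 0.09, adjusted p = 0.0162) was lost with DESeq2 (0.0579) and without a filter (0.0729). It was also lost without D6 replicate 1 (log2 fold change 0.15), D7 replicate 1 (0.30) or D7 replicate 2 (0.21). Tfap2a and Tfap2b, AP-2 factors of neural crest and surface ectoderm, were low, at 1.00 and 1.08 and at 1.35 and 1.66 CPM in D6. In D7G Tfap2a read 3.50 and 3.27 and Tfap2b 7.03 and 6.10, and in D7 1.62 and 1.94 and 2.93 and 2.43. The Tfap2b rise from D6 to D7 (0.80 ± 0.19, adjusted p = 0.00306) lost its call without D7 replicate 1 (log2 fold change 0.61). That of Tfap2a (0.73 ± 0.23, adjusted p = 0.0181) lost it with DESeq2 (0.106). The Tfap2a call was also lost without D6 replicate 1 (log2 fold change 0.69), D6 replicate 2 (0.78) or D7 replicate 2 (0.57).

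Heyl, a Notch-induced repressor, had the largest D7G over D7 ratio of all members, 4.54, at low counts. It read 1.54 and 1.40 CPM in D6, 0.838 and 0.819 in D7 and 3.72 and 3.80 in D7G, so that D7 was below D6 and D7G above both. The fall to D7 (-0.86 ± 0.23, adjusted p = 0.00573) had an adjusted p of 0.0512 with DESeq2. Lmo2, a LIM-only cofactor of blood and endothelial progenitors, fell the most of all members, from 19.1 CPM in both D6 libraries to 4.79 and 4.43 in D7 (-2.08 ± 0.11, adjusted p = 6.35e-11). With Gdf11 it read 10.2 and 11.7, above D7 but below D6 (-0.83 ± 0.10, adjusted p = 3.84e-07). Mamld1, a transcriptional coactivator, read 8.87 and 10.7 CPM in D6, 10.8 and 11.4 in D7 and 26.5 and 21.0 in D7G.

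Miat, a long noncoding RNA of neural tissue, read 35.4 and 33.8 CPM in D2, 10.3 and 7.29 in D3, 47.1 and 43.6 in D6, 99.6 and 116 in D7 and 237 and 279 in D7G. It dipped in D3 and then lay higher in each later group without overlap, with log2 changes of -2.05 ± 0.12 from D2 to D3 (adjusted p = 1.70e-11), 1.21 ± 0.09 from D6 to D7 (3.35e-09) and 2.47 ± 0.08 from D6 to D7G (6.12e-15). Mex3b, an RNA-binding protein, took the other course after D6, with 84.2 and 76.7 CPM in D6, 62.5 and 57.2 in D7 and 103 and 115 in D7G. It fell from D6 to D7 by 0.46 ± 0.06 (adjusted p = 1.30e-05) and rose from D6 to D7G by 0.40 ± 0.06 (1.41e-05).

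Calcium-permeable channels were also among the members. Cacna1c, the pore of an L-type calcium channel, read 18.6 and 19.1 CPM in D6, 24.2 and 23.2 in D7 and 44.4 and 56.0 in D7G. Its rise from D6 to D7 (0.30 ± 0.09, adjusted p = 0.0191) lost the call without a filter (0.0843). It also lost it without any 1 of the D6 or D7 libraries (log2 fold change 0.22 to 0.30). Trpv6, a calcium-selective channel of epithelia, read 1.88 and 1.66 CPM in D6, 1.41 and 1.39 in D7 and 3.25 and 3.39 in D7G. From D6 it changed by -0.37 ± 0.21 to D7 (adjusted p = 0.174) and rose by 0.87 ± 0.18 to D7G (3.27e-04). With the counts per Ensembl gene, whose sum for Trpv6 was 1.36 times that used here, the change to D7 reached a call (-0.48, adjusted p = 0.0491).

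Cytoskeletal and motor proteins gave the most abundant member. Tmsb4x, which binds actin monomers, read 120 CPM in both D2 libraries, 143 and 154 in D3, 335 and 325 in D6, 421 and 410 in D7 and 1018 and 1161 in D7G. The 5 groups did not overlap, and it rose by 0.30 ± 0.05 from D6 to D7 (adjusted p = 1.14e-04) and by 1.69 ± 0.05 from D6 to D7G (1.16e-15). Tmsb4x has processed copies elsewhere in the genome, so its count is uncertain to that extent. Trim9, a neuronal ubiquitin ligase that binds Dcc, read 9.96 and 9.49 CPM in D6, 12.7 and 10.6 in D7 and 27.9 and 34.0 in D7G. Mybpc1, a myosin-binding protein, rose from 3.16 and 2.87 CPM in D6 to 5.57 and 4.97 in D7 (0.77 ± 0.14, adjusted p = 1.77e-04) and read 13.9 and 14.6 in D7G. Kif26b, a kinesin-family protein of mesenchyme, went from 36.9 and 34.7 CPM in D6 to 14.8 and 13.1 in D7 and 27.4 and 30.5 in D7G. It fell from D6 to D7 by 1.40 ± 0.08 (adjusted p = 1.29e-10), and D7G remained below D6 (-0.34 ± 0.07, 4.29e-04).

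Among the other members, Rgs5, a regulator of G protein signalling known from pericytes, had the largest rises after D6. Its libraries read 1.28 and 1.31 CPM in D6, 4.43 and 5.40 in D7 and 9.11 and 11.6 in D7G, and D2 and D3 stayed at 0.0322 to 0.319. The log2 changes from D6 were 1.89 ± 0.23 to D7 (adjusted p = 3.09e-06) and 2.96 ± 0.21 to D7G (2.72e-10). Hsd11b2, which inactivates glucocorticoids, took the opposite course, from 4.67 and 4.01 CPM in D6 to 2.45 and 2.49 in D7 (-0.85 ± 0.15, adjusted p = 2.38e-04) and then 9.93 and 10.5 in D7G. Its fall from D2 to D3 (-0.77 ± 0.27, adjusted p = 0.0175) was lost without D2 replicate 1 (0.0927) or D3 replicate 1 (0.194). Nfam1, an immune-receptor adaptor gene, fell from 17.3 and 19.0 CPM in D6 to 11.3 and 10.1 in D7 (-0.80 ± 0.10, adjusted p = 5.14e-06) and read 19.9 and 23.5 in D7G. The D7G value of Nfam1 differed from D6 by 0.22 ± 0.09 (adjusted p = 0.0517). It reached a call with limma-voom (0.0432), with library totals (0.0272) and without D7G replicate 1 (log2 fold change 0.28), among others.

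The remaining members were low, with group means of at most 11.5 CPM. Fbxl22, an F-box protein, fell from 3.07 and 2.99 CPM in D6 to 1.41 and 1.09 in D7 (-1.31 ± 0.19, adjusted p = 2.81e-05) and read 2.71 in both D7G libraries. Inpp4b, an inositol phosphatase, read 1.22 and 1.66 CPM in D6, 0.987 and 0.728 in D7 and 1.99 and 2.43 in D7G. Its fall to D7 (-0.78 ± 0.27, adjusted p = 0.0284) was lost with DESeq2 (0.149) and without D6 replicate 2 (log2 fold change -0.56) or D7 replicate 2 (-0.60). Its rise from D6 to D7G (0.58 ± 0.22, adjusted p = 0.0346) was lost with DESeq2 (0.267), among others. These include the fits without D6 replicate 1 (log2 fold change 0.39) or D7G replicate 2 (0.38). Eepd1 rose from 4.32 and 3.92 CPM in D6 to 6.61 and 6.06 in D7 (0.59 ± 0.12, adjusted p = 0.00104), and RMST_1 from 2.95 and 2.99 to 4.55 and 4.52 (0.58 ± 0.15, 0.00605). In D7G these stood at 11.2 and 11.9 and at 8.07 and 10.0, above both earlier groups.

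For 5 further members no call was made between D6 and D7. Chsy3, a chondroitin sulfate synthase, read 1.47 and 1.53 CPM in D6, 1.56 and 1.76 in D7 and 5.27 and 4.36 in D7G. Dync1i1, a dynein subunit, read 1.22 and 1.11, 0.658 and 0.758, and 2.40 and 2.55 in the same groups, and its D7 value reached a call in 6 alternatives, for example without either of the D3 libraries (-0.79, adjusted p = 0.0298 and 0.0296). Samd5 stood at 4.98 and 5.67 CPM in D7G, Cd244, an immune cell receptor, at 3.22 and 2.77 and Ms4a10 at 2.18 and 2.43. All 5 were higher in D7G than in D6, the smallest rise being that of Ms4a10 (0.68 ± 0.22, adjusted p = 0.0157). The Ms4a10 rise lost its call with DESeq2 (0.164) and without D6 replicate 1 (log2 fold change 0.45) or D7G replicate 2 (0.54).

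The Tgf-β pathway around these genes was read from 5 lists. The lists were chosen with earlier results of these data known, so counts over them are descriptions. Tgfb2 was the only member on them. Its own call in D7G against D7 follows from the rule. Of 11 tested ligand genes, 9 were higher and 1 lower in D7G than in D7, where 22.5% and 18.2% of all tested genes were (median log2 fold change 0.87, against 0.02 over all tested genes). Inhba, the activin A subunit, averaged 0.121 ± 0.0437 CPM (SD, n = 2) in D7 and 5.99 ± 1.70 in D7G, and Lefty1, a Nodal antagonist, 27.7 ± 0.636 and 57.3 ± 0.0943. Tgfb1 and Tgfb3 changed by 1.36 ± 0.21 (SE; adjusted p = 2.91e-05) and 0.87 ± 0.13 (1.71e-05), beside 0.86 ± 0.08 for Tgfb2. Only for Tgfb2 of these 3 did the rule's gain by D6 hold: Tgfb1 averaged 7.44 CPM in D3 and 1.20 in D6, and Tgfb3 5.01 and 4.40.

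Receptors moved both ways, with 3 of 8 tested higher and 4 lower in D7G than in D7, where 22.5% and 18.2% of all tested genes were. The type II receptors Acvr2a and Acvr2b fell by 0.21 ± 0.06 (adjusted p = 0.00443) and 0.49 ± 0.05 (1.69e-07) on the log2 scale, and Tgfbr2 rose by 1.38 ± 0.09 (1.86e-10). Among 6 Smad transducers 3 were higher and 0 lower, with Smad2 at 0.17 ± 0.05 (adjusted p = 0.0121), Smad3 at 0.04 ± 0.04 (0.472) and Smad4 at -0.03 ± 0.04 (0.615). Of 15 inhibitors and binding proteins 11 were higher and 0 lower, among them Smad7, a feedback inhibitor (1.33 ± 0.07, adjusted p = 9.52e-12), Skil (1.19 ± 0.04, 3.89e-14) and Fst, the activin-binding follistatin (2.96 ± 0.07, 1.83e-16). All 15 tested target genes were higher, with a median of 1.43. Col1a1 and Col1a2, the chains of type I collagen, averaged 27.4 ± 2.07 and 16.5 ± 0.218 CPM (SD) in D7 and 242 ± 13.7 and 87.0 ± 2.74 in D7G. Unlike Col3a1, they were lower in D6 (8.01 ± 1.27 and 5.27 ± 0.0152) than in D3 (101 ± 3.91 and 111 ± 1.83), and of the 15 targets 14 fell and 1 rose from D3 to D6, where 33.3% and 32.4% of all tested genes did.

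**Figure D5:**
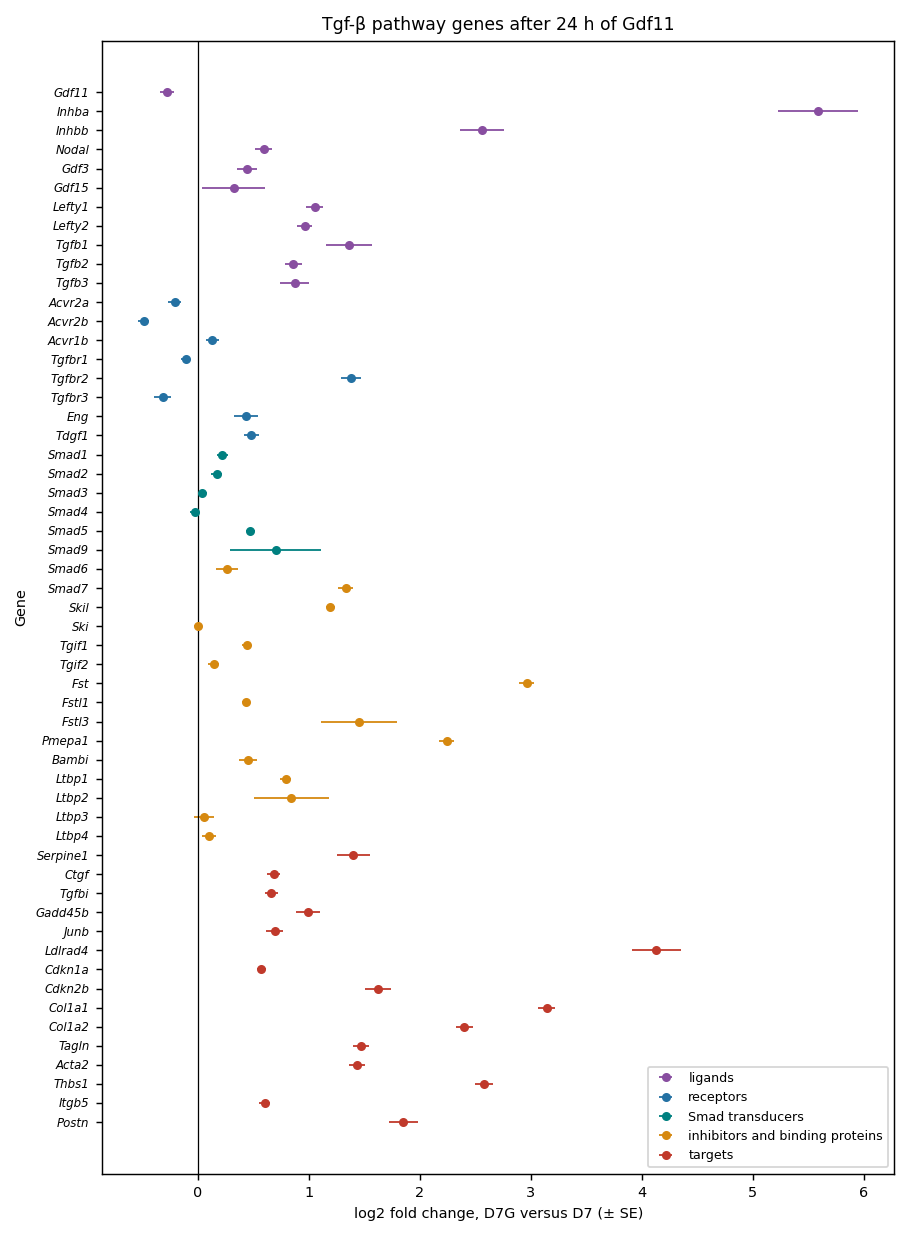
Points give the log2 fold change from D7 to D7G with its SE (lines) for the tested genes of the 5 Tgf-β lists, coloured by list. All 15 targets lie right of 0 while receptors lie on both sides, and Tgfb2, a member, is at 0.86. The lists were chosen with earlier results of these data known.

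Lists of cell type markers, also chosen with earlier results known, were read in the same way. Over all tested genes, 22.5% were higher and 18.2% lower in D7G than in D7. Members on a list were higher by the rule, so their own calls within a list count are not a result. Of 11 tested fibroblast markers, which Col3a1 belongs to and which feeder cells would carry, 9 were higher in D7G than in D7 and 1 lower, and their summed level went from 538 to 551 CPM in D7 to 1253 to 1407 in D7G. S100a4, a marker on that list, stayed under 1 CPM in every group mean, and Dcn averaged 0.525 CPM in D7 and 0.674 in D7G. The summed level was 204 to 243 CPM in D2, 448 to 449 in D3 and 403 to 407 in D6. From D3 to D6, the step over which Col3a1 gained, 5 of the 11 markers were higher and 6 lower. Of all tested genes, 32.4% and 33.3% were. The part of fibroblast-like cells in the values of the matrix members was not tested. Of 17 tested lateral plate and limb genes, which include Pitx1, 12 were higher and 0 lower (summed level 187 to 198 CPM in D7 and 477 to 484 in D7G). Tbx5 and Tcf21 were under 1 CPM in every group mean. From D3 to D6, 5 of the 17 were higher and 8 lower. Of 11 neural crest genes, which include Tfap2a and Tfap2b, 6 were higher and 1 lower (107 to 109 and 151 to 152 CPM), while Sox10, a defining crest gene, averaged 0.211 CPM in D7 and 0.330 in D7G. From D3 to D6, 6 of the 11 crest genes were higher and 4 lower, and their summed level went from 83.1 to 88.8 CPM to 62.2 to 66.7.

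No member was on the neuron, spinal progenitor, paraxial mesoderm or neuromesodermal progenitor lists. Of these, 10 of 16 neuron genes were higher in D7G than in D7 and 0 lower, and their summed level went from 196 to 202 CPM to 345 to 351. From D3 to D6, 8 neuron genes were higher and 7 lower, and their summed level went from 208 to 211 CPM to 122 to 127. The part of neurons in the values of Dcc, Robo2, Miat and Trim9 was not tested. For spinal progenitor genes 3 of 15 were higher and 7 lower, for paraxial mesoderm 4 and 7 of 20, and for progenitors 3 and 7 of 14. Over all tested genes 22.5% were higher and 18.2% lower, so the higher counts of these 3 lists lay near that share. Of 28 matrix genes, which include Spon2 and Emilin1, 20 were higher and 2 lower. From D3 to D6, 19 of the 28 had fallen while 8 rose, where 33.3% and 32.4% of all tested genes did. Among 22 tested Wnt genes, which include Nkd1, 11 were higher and 3 lower. Dkk1, a secreted Wnt inhibitor, averaged 6.11 ± 1.05 CPM (SD) in D7 and 15.6 ± 1.38 in D7G, and Axin2, an intracellular one, 159 ± 0.816 and 220 ± 25.7. The Bmp list gave 13 higher and 2 lower of 19, Nog among the higher, and the Notch list 8 and 4 of 15, Heyl among the higher. The calls of Nog, Heyl, Nkd1, Spon2 and Emilin1 in D7G against D7 follow from the rule.

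The members' genes were long. Of 55 protein-coding members 20 (36.4%) spanned over 100 kb, against 14.6% of 14849 protein-coding tested genes, and the median span was 40.3 kb against 24.4 kb. Exon lengths differed less, with medians of 4558 and 4200 bases. Chromosome 1 held 7 members, and chromosomes 2, 13 and 15 held 5 each. On chromosome 13, Lect2 lay 706 kb from Pitx1 and 873 kb from Spock1, and on chromosome 15 Col14a1 lay 1145 kb from Has2.

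Some members' counts depend on how reads were assigned. Exons of 13 members overlap a gene on the opposite strand: Kif26b, Tgfb2, Pdgfc, Miat, Lrrtm4, Fbxl22, Zic4, Mybpc1, Trim9, Tfap2a, Pitx1, Angpt1 and Has2. Islr overlaps Islr2 on the same strand. In the second deposited table, counted per Ensembl gene, 56 members were found by symbol, 46 of them within 5% of the summed counts used here, and 8 differed by more than 10%. Islr fell from D6 to D7 with that table (-0.42, adjusted p = 0.0119), where the table used here gave -0.11 ± 0.14 (0.583).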

How the data were processed

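The authors deposited raw counts per gene symbol, used here, and counts per Ensembl gene, used as an alternative. The submitters' processing notes name the build mm10 and the tools featureCounts 1.6.3, HISAT2 2.1.0, STAR and limma; what each was used for, counting options and use of strand are not given in the sources used here. CPM was count divided by the column sum. RPKM used the gene lengths deposited with the counts per gene symbol, and gene positions came from the same source. Protein-coding status and exon overlaps came from GENCODE vM21 on the build mm10, which lacks Cd244 and RMST_1 by symbol. The members, the gene lists and the tests were chosen with earlier results of these data known.

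All 10 libraries were fitted together in R 4.3.3 with edgeR 4.0.16 (quasi-likelihood test, TMM, default filterByExpr), with 1 coefficient per group and 5 residual degrees of freedom; 18818 genes were tested, and p-values were adjusted by Benjamini-Hochberg over all of them. The common spread between replicates that edgeR estimated over all tested genes, beyond counting error, was 3.34% (coefficient of variation). Single genes differed from it. In D7G the SD was 84.1 around a mean of 661 CPM for Col3a1 and 0.0408 around 66.1 for Nkd2. The SE is the log2 fold change divided by the root of F. It rests on a spread pooled over groups and can understate the spread of a single group. Genes were called at an adjusted p under 0.05.

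Members named in the text were the 12 with the most counts, the 10 largest D7G over D7 and D6 over D3 ratios, the 8 largest called changes against D6, the extremes of D3 against D2 (these with at least 5 CPM in a group), list members and the 4 genes on either side of each threshold. Others were named after their values were seen, to account for the remaining roles. The predicted gene next to the gain threshold is not named. The values of 1 member are not reported here; it is kept in the counts.

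Alternatives were DESeq2 1.42.0, limma-voom (limma 3.58.1), library totals, upper-quartile factors, no filter, 1 CPM in 2 libraries, the Ensembl table, only the groups compared, a replicate term and each library left out. Genes at 0 counts in a group were given a floor of 3 counts; intervals are exact at 95%.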

Additional observations from a re-analysis of the deposited data

How the results depend on the processing

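The number of members depended most on how the rule was read. When every pair of single libraries had to meet it, 32 of the 58 members were left, and with 1 library left out the rule chose 49 to 75 genes, the fewest without D7G replicate 2 (47 of them members) and the most without D7G replicate 1 (55). TMM-scaled CPM gave 60 genes with all 58 members, and the counts per Ensembl gene gave 62 with 55. With 1 library left out, D7 against D6 gave 18 to 23 members higher and 13 to 19 lower, D7G against D6 49 to 54 and 2 to 3, D3 against D2 24 to 29 and 6 to 8, and D6 against D3 and D7G against D7 57 to 58 higher and 0 lower; the lone library of such a group borrows its spread from the other groups. No change of a called member reversed sign in any alternative. Called in every alternative were 28 of the 40 members called in D7 against D6, 51 of 55 in D7G against D6 and 29 of 37 in D3 against D2; the cause of the losses was not tested. Over all tested genes, 56.8% of the calls in D7 against D6 were higher, against 66.1% with library totals and 46.3% without D7 replicate 2; in D3 against D2 it was 50.6% and with library totals 60.5%. Deviations of libraries with the same replicate number correlated at -0.0418 to 0.0487, so no shift shared by a number was seen. Whether the same number marks the same culture series is not stated, and these correlations cannot decide it. With a replicate block the counts of members were those given, 23 and 17 in D7 against D6 and 52 and 3 in D7G against D6. Members under about 1 CPM in a group, such as Cd244 and Lect2 in D2, have few counts, so a missing call there does not show that they did not change.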
